A study of Caenorhabditis elegans with 13 samples.

Results

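The mature miRNAs described here are 4 arms made from 3 hairpins that mark the nervous system of Caenorhabditis elegans: cel-miR-791-3p, cel-miR-124-5p, cel-miR-124-3p and cel-lsy-6-3p, written below without the species prefix. They were chosen by name from the 434 mature miRNAs counted, and their read counts were followed through 13 small RNA libraries. All libraries came from whole adult N2 worms, the wild-type laboratory strain, with no allele or transgene named in the labels. Ad libitum worms (AL) gave 1 library on each of adult days 2, 4, 6, 8 and 10, and worms under the regimens called CR and IF gave 1 library each on days 4, 6, 8 and 10. The labels do not spell out these abbreviations or the feeding protocols. They also do not say how many worms were pooled or whether libraries came from separate cultures. The libraries held between 2639586 and 5143918 miRNA reads.

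A miRNA is cut from a hairpin, 1 of its arms is loaded into an Argonaute protein, and the pair lowers the output of mRNAs that match the seed near its 5′ end. Neuronal miRNAs are made in only part of the worm's cells. In RNA of whole animals they are thus diluted by the miRNAs of intestine, muscle, epidermis and germ line. mir-791 is expressed in a small set of sensory neurons that detect carbon dioxide, where it keeps broadly expressed genes low. mir-124 is conserved from worms to mammals and is active in many ciliated sensory neurons; its 3p arm is the conserved guide. lsy-6 acts in a single taste neuron, ASEL, where it represses the transcription factor gene cog-1 and so sets the left identity of the ASE pair.

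The 3 hairpins lie apart in the genome (WBcel235 assembly, Ensembl annotation, 1-based positions, all on the plus strand). The mir-791 hairpin occupies chrX:5809349-5809433 and is intergenic, with the nearest protein-coding gene, F13D11.3, 3427 bp away. The mir-124 hairpin occupies chrIV:11871738-11871833, in an intron of trpa-1, a cation channel gene, and on the same strand. The lsy-6 hairpin occupies chrV:10647232-10647304 and is intergenic, 89 bp from C32C4.3. Of the annotated arms, miR-791-3p is 24 nt long, miR-124-5p 23 nt, miR-124-3p 21 nt and lsy-6-3p 22 nt.

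All 4 arms were rare, and miR-791-3p was the least so. Levels are given in CPM, read counts per library size, with the size scaled by trimmed means of M values (TMM). An arm with a mean under 10 CPM over the 13 libraries is called low here. miR-791-3p averaged 13.8 CPM (SD 10.1, n = 13 libraries) and held rank 145 of 434. miR-124-5p averaged 8.83 CPM (SD 4.15, n = 13; rank 167), miR-124-3p 2.77 CPM (SD 2.09, n = 13; rank 197) and lsy-6-3p 2.06 CPM (SD 1.41, n = 13; rank 212). The last 3 are thus low. For comparison, glial miR-228-5p, from the cells that ensheathe neurons, averaged 46781 CPM. A floor of 3 reads corresponded to 0.48 to 1.478 CPM, so miR-124-3p and lsy-6-3p were at or near the floor in several libraries. The opposite arm of mir-791, miR-791-5p, had 10 reads in all libraries together against 669 for miR-791-3p, and lsy-6-5p had 0 reads in any library. A 0 allows up to 3 reads per library, which is a limit on counting error only. In RNA of whole worms, fewer cells of a type and less RNA per cell cannot be told apart.

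The counts of miR-791-3p differed between libraries far more than counting error allows, and with TMM scaling the 5 highest levels were all of day 8 or day 10. Scaled to the unadjusted total, CR on day 10 still led (43.5 CPM), but IF (17.8) and CR (17.0) of day 6 came before every day 8 library. AL had 4.5 CPM on day 2, followed by 3.06, 5.94, 24.3 and 15.6 CPM on days 4, 6, 8 and 10. On days 4, 6, 8 and 10 CR had 4.51, 10.9, 21.2 and 38.4 CPM, and IF had 9.81, 10.9, 21.0 and 9.85 CPM. With TMM scaling, the day 4 and day 6 levels lay below the day 8 level in every diet, and on day 10 the diets parted. Scaled to the unadjusted total, day 4 lay below day 8 in every diet, but day 6 did so only in AL. CR on day 10 held the highest level of the 13, with 170 reads and a 95% Poisson interval of 32.8 to 44.6 CPM. The lowest, AL on day 4, rested on 11 reads (interval 1.53 to 5.48 CPM). Put in order, 11 of 12 pairs of neighbouring libraries had overlapping intervals, and the exception was the step from AL on day 8 to CR on day 10. Overlap of neighbours does not show that libraries further apart in the order are alike. The variance of the 13 counts was 30.8 times that expected from counting alone. It was 8.35 times for miR-124-5p, 5.55 times for miR-124-3p and 3.33 times for lsy-6-3p. This ratio grows with the number of reads (669, 468, 147 and 93 in the same order of arms). It therefore does not rank the arms by their relative spread. PCR copies are not separate molecules, so all such intervals and ratios describe counting error alone.

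**Figure D1:**
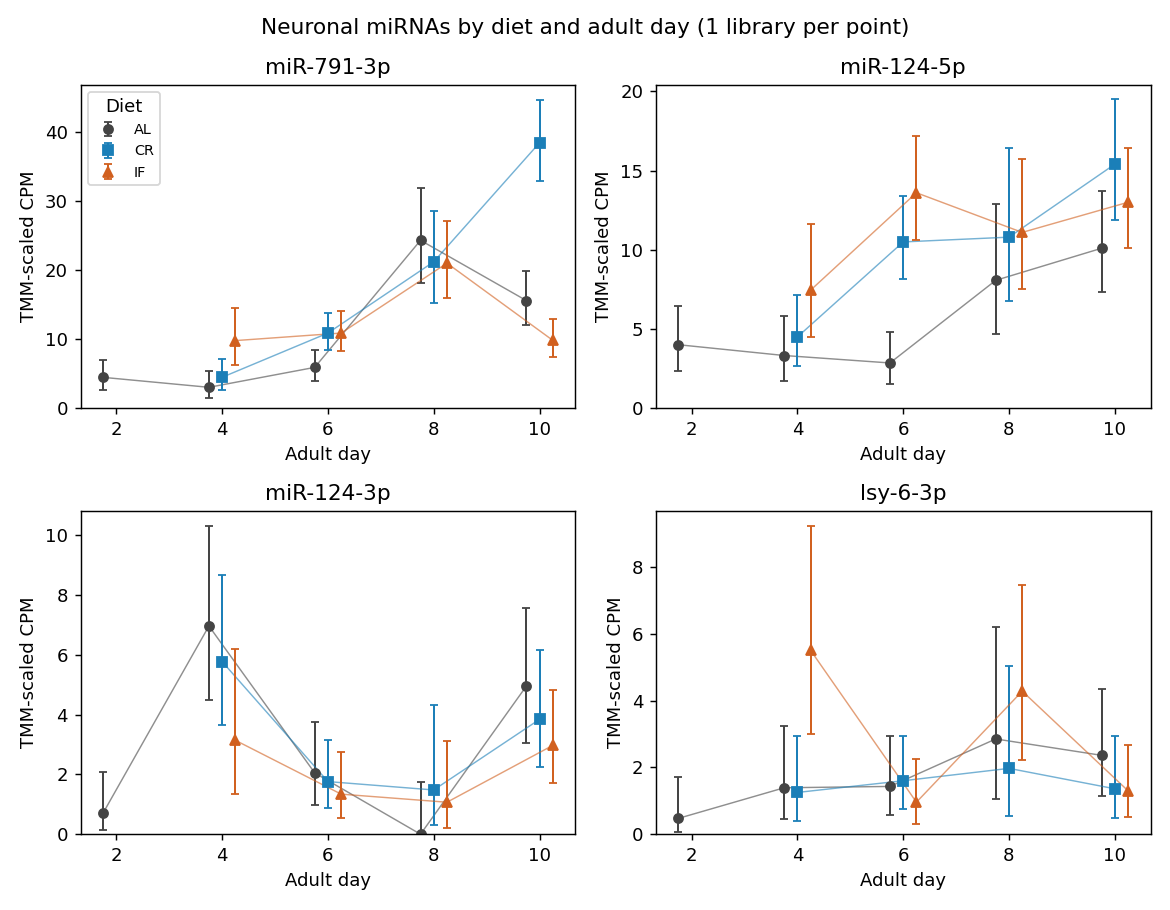
Levels of the 4 arms (TMM-scaled CPM, linear axes that differ between panels) against adult day, 1 library per point, coloured by diet; bars are 95% Poisson intervals of the read count. miR-791-3p lies between 21.0 and 24.3 CPM in the 3 day 8 libraries and spreads from 9.85 to 38.4 CPM on day 10, while miR-124-3p is lowest on day 8 in CR and IF and has 0 reads in AL on that day.

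The diets were compared first, to ask whether these neuronal miRNAs differ between worms of the same age under different feeding. No member passed in any diet comparison. The mean of miR-791-3p over days 4 to 10 was 12.2 CPM in AL (SD 9.65, n = 4 days), 18.7 in CR (SD 14.8, n = 4) and 12.9 in IF (SD 5.45, n = 4), and the ranges overlapped throughout. Its log2 difference was 0.45 ± 0.47 (SE) for IF against AL, with a 95% interval of -0.55 to 1.45 (edgeR adjusted p = 0.565). CR differed from AL by 0.66 ± 0.46, interval -0.32 to 1.64 (edgeR adjusted p = 0.473), and from IF by 0.22 ± 0.47, interval -0.79 to 1.22 (edgeR adjusted p = 0.86). The intervals are wide, and the p-values do not show that the diets are alike. The days disagreed on the direction: IF lay above AL by 1.65 log2 units on day 4 and by 0.87 on day 6, and at -0.21 on day 8 and -0.66 on day 10.

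miR-124-5p came nearest to a diet difference. In AL it had 3.34, 2.87, 8.08 and 10.1 CPM on days 4, 6, 8 and 10. In CR it had 4.51, 10.5, 10.8 and 15.4 CPM on the same days, and in IF 7.46, 13.6, 11.1 and 13 CPM. Both regimens lay above AL on 4 of 4 days, although the ranges of the diets overlapped. The log2 difference of IF from AL was 1.01 ± 0.41, interval 0.13 to 1.89, and by edgeR's quasi-likelihood test the p was 0.027 before adjustment and the adjusted p = 0.113. That of CR from AL was 0.78 ± 0.41, interval -0.09 to 1.65 (edgeR adjusted p = 0.304), and CR and IF differed by -0.23 ± 0.39 (edgeR adjusted p = 0.851). Scaling libraries to their total counts raised the median of all miRNAs by 0.42. The IF value was then 1.48 and passed (edgeR adjusted p = 0.0135). Without the AL library of day 6, where this arm was lowest, the IF value fell to 0.668 (edgeR adjusted p = 0.36). The CR value was then 0.453 (edgeR adjusted p = 0.778). Over all fits that left out 1 library, the IF value was 0.668 to 1.21 and was never called.

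The remaining arms gave no diet call either. miR-124-3p averaged 3.49 CPM in AL (SD 3.08, n = 4 days), 3.21 in CR (SD 2.0, n = 4) and 2.13 in IF (SD 1.08, n = 4). Its log2 difference was -0.54 ± 0.53 for IF and -0.03 ± 0.52 for CR against AL, and the CR value changed sign with total counts (0.38) and lay between -0.29 and 0.19 when 1 library was left out. lsy-6-3p averaged 2.01 CPM in AL (SD 0.718, n = 4 days), 1.54 in CR (SD 0.319, n = 4) and 3.01 in IF (SD 2.23, n = 4), with log2 differences of 0.36 ± 0.55 for IF and -0.33 ± 0.57 for CR against AL (edgeR adjusted p = 0.713 and 0.897). The lsy-6-3p value of IF turned to -0.21 without the IF library of day 4, and that of CR to 0.07 with total counts.

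Over the whole table, edgeR's quasi-likelihood test called 14.2% of 212 miRNAs in the comparison of IF with AL, 0% in that of CR with AL and 0% in that of CR with IF; of the 4 members 0, 0 and 0 were called, and 1, 0 and 0 had an unadjusted p under 0.05. The 0% stands for 0 miRNAs by edgeR, with 39 (CR against AL) and 18 (CR against IF) at an unadjusted p under 0.05; DESeq2 called 21 and 0, none of them a member. Both comparisons with AL share the same AL libraries. A day held 1 library per diet, so these p-values measure how a difference varied between days.

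In the main edgeR fits, the members' only calls were between days 4 and 10 and in the age slope. Each day held 1 library per diet, so the p-values of day contrasts measure how a difference varied between diets. They do not measure variation between separate samplings of an age. From day 4 to day 10 miR-791-3p rose by 1.86 ± 0.56 log2 units (interval 0.66 to 3.06, edgeR adjusted p = 0.0217), from a mean of 5.8 CPM (SD 3.56, n = 3 diets) to 21.3 CPM (SD 15.1, n = 3), a fold change of 3.63. miR-124-5p rose by 1.39 ± 0.47 (interval 0.39 to 2.4, edgeR adjusted p = 0.0324), from 5.1 CPM (SD 2.12, n = 3 diets) to 12.8 CPM (SD 2.62, n = 3), a fold change of 2.63. So 2 of 4 members were called, where 35.4% of the 212 miRNAs tested were (36 higher, 39 lower). miR-124-3p, at -0.42 ± 0.54, and lsy-6-3p, at -0.54 ± 0.64, were not called (edgeR adjusted p = 0.618 and 0.586).

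The difference of miR-791-3p between these days varied by diet. Its day 10 level exceeded day 4 by 2.29 log2 units in AL and by 3.05 in CR, while IF stood at -0.01. For miR-124-5p the same differences were 1.56 in AL, 1.74 in CR and 0.77 in IF, so all 3 diets lay on the same side. Fitted slopes of miR-791-3p over days 4 to 10 were 0.48 ± 0.22 log2 units per day in AL, 0.51 ± 0.19 in CR and 0.07 ± 0.20 in IF. Tested for a difference between the diets, these slopes gave an edgeR adjusted p = 0.999. That test called 0 of 212 miRNAs, with 1 at an unadjusted p under 0.05, so a difference between diets in the age course was not detectable with these libraries. The day 10 call of miR-791-3p was lost without the AL library of day 4 (1.61, edgeR adjusted p = 0.0878), the CR library of day 4 (1.48, 0.086) or the CR library of day 10 (1.28, 0.162). That of miR-124-5p was lost without the AL library of day 4 or 10 (1.43 and 1.20, edgeR adjusted p = 0.0797 and 0.121) or the CR library of day 4 or 10 (1.21 and 1.36, adjusted p = 0.107 and 0.124).

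A common slope over all 13 libraries was 0.32 ± 0.10 log2 units per day for miR-791-3p (interval 0.11 to 0.53, edgeR adjusted p = 0.0423), against calls for 13.6% of 214 miRNAs. The call was close to the threshold and did not hold in 11 of the 13 fits that left out 1 library (adjusted p 0.0232 to 0.139 over all 13), though every slope lay above 0 (0.27 to 0.38). With day as a random block, an alternative chosen after seeing the data, the slope was 0.27 and limma's adjusted p = 0.463. Slopes of the other arms were 0.19 ± 0.08 for miR-124-5p, -0.01 ± 0.13 for miR-124-3p and 0.06 ± 0.11 for lsy-6-3p (edgeR adjusted p = 0.13, 0.964 and 0.765). Libraries of 1 day moved together over all miRNAs, and a day cannot be told apart from whatever else the libraries of that day shared.

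**Figure D2:**
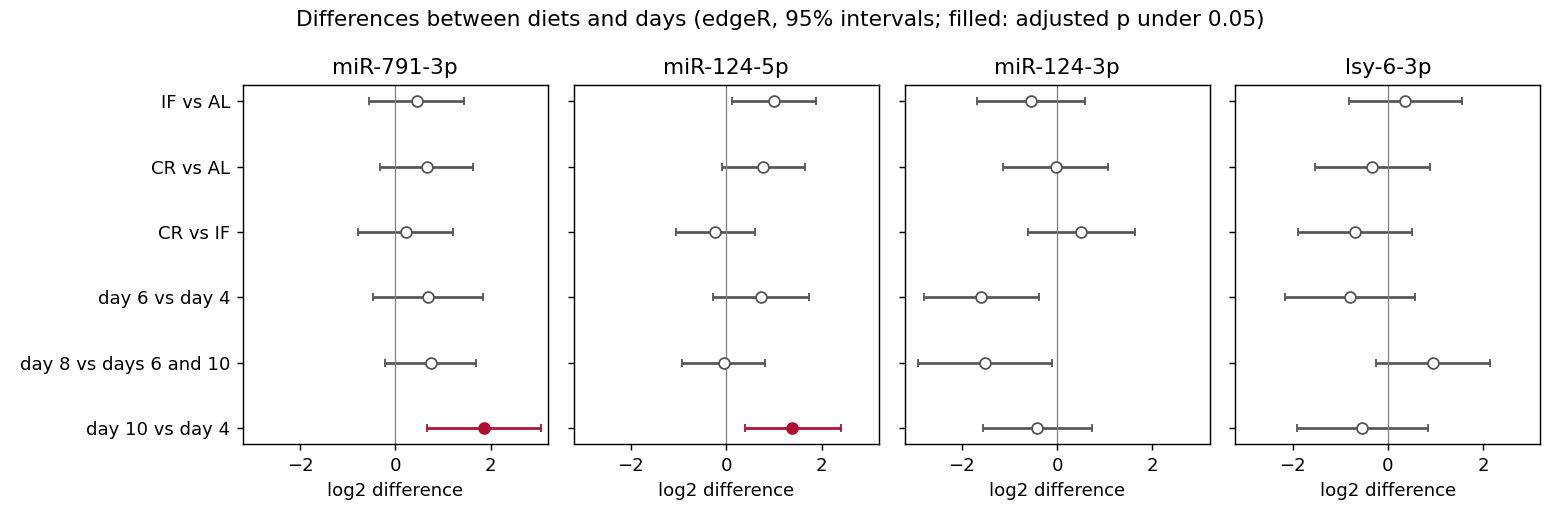
Log2 differences of the 4 arms (points) with 95% intervals from edgeR for 3 diet contrasts and 3 day contrasts; filled red points passed an adjusted p of 0.05. Only miR-791-3p and miR-124-5p between days 4 and 10 are filled, and every diet interval except that of miR-124-5p for IF against AL (0.13 to 1.89) spans 0.

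Between days 4 and 6 no member was called by edgeR, against 17.5% of 212 miRNAs. miR-124-3p was nearest, at -1.59 ± 0.57 (interval -2.8 to -0.38, edgeR adjusted p = 0.068), and DESeq2 called it (-1.86, adjusted p = 0.0255). Its level was 6.96 CPM on day 4 and 2.05 on day 6 in AL, 5.77 and 1.76 in CR and 3.14 and 1.34 in IF, so day 6 lay below day 4 in 3 of 3 diets. miR-791-3p had 0.69 ± 0.55, miR-124-5p 0.73 ± 0.47 and lsy-6-3p -0.80 ± 0.64 in the same contrast.

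Day 8 stood apart from its neighbours for 51.4% of the 212 miRNAs but for 0 of 4 members by edgeR (1 at an unadjusted p under 0.05; DESeq2 called miR-124-3p). Against the mean of days 6 and 10, miR-791-3p was at 0.74 ± 0.45 (edgeR adjusted p = 0.165), miR-124-5p at -0.05 ± 0.41, miR-124-3p at -1.52 ± 0.66 (adjusted p = 0.067) and lsy-6-3p at 0.95 ± 0.56 (adjusted p = 0.164). The day 8 libraries had TMM factors of 0.475, 0.704 and 0.679 in AL, CR and IF. With total counts the median of all miRNAs moved by -1.11, miR-791-3p turned to -0.36 and lsy-6-3p to -0.16, and miR-124-5p (-1.13) and miR-124-3p (-2.59) passed as lower. Scaled to the unadjusted total, miR-791-3p had 11.5, 14.9 and 14.3 on day 8 and 9.14, 17.0 and 17.8 CPM on day 6 in AL, CR and IF, so the day 8 peak of the CPM plot depends on the scaling.

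The balance of the mir-124 arms is a ratio within a library, which scaling cannot move, and it differed between days. Here too, a day cannot be told apart from whatever else its libraries shared. Although miR-124-3p is the known guide, miR-124-5p had more reads in 11 of 13 libraries. Over all libraries miR-124-3p gave 147 of 615 reads of the hairpin, or 23.9% (exact binomial 95% interval 20.6 to 27.5). In AL the share was 15% on day 2, and 67.6%, 41.7%, 0% and 32.8% on days 4, 6, 8 and 10. On those 4 days it was 56.1%, 14.3%, 12% and 20% in CR and 29.6%, 8.97%, 8.82% and 18.6% in IF. Day 4 had the highest share and day 8 the lowest in each diet over days 4 to 10. The day 8 shares rest on 0, 3 and 3 reads of miR-124-3p in AL, CR and IF. AL and CR on day 4 were the only libraries in which the 3p arm led, with intervals of 50.2 to 82.0% and 39.7 to 71.5%. The 0 of 17 reads in AL on day 8 allows a share of up to 17.6% by the limit of 3 reads, and of up to 19.5% by the exact binomial interval used for the other libraries.

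The mean share was 51.1% on day 4 (SD 19.5, n = 3 diets), 21.6% on day 6 (SD 17.5, n = 3), 6.94% on day 8 (SD 6.22, n = 3) and 23.8% on day 10 (SD 7.83, n = 3). The range of 44.2 percentage points between day means was larger than in nearly all 576 ways to exchange days within diets (exact permutation p = 0.00694, adjusted p = 0.0278 over 8 such tests). Without the day 4 libraries the range was 16.9 points and exact permutation p = 0.194, and without the day 8 libraries 29.5 points and exact permutation p = 0.0833; with 3 days the smallest p possible is 0.0278. Between diets the mean share was 35.5% in AL (SD 27.9, n = 4 days), 25.6% in CR (SD 20.6, n = 4) and 16.5% in IF (SD 9.87, n = 4), with exact permutation p = 0.134 (adjusted p = 0.179). Pooling the reads of a diet gives more weight to libraries with more mir-124 reads. The pooled shares were 39.4% (56 of 142 reads) in AL, 23.7% (54 of 228) in CR and 15.1% (34 of 225) in IF, with exact permutation p = 0.00926 before adjustment. Without the day 8 libraries the range between diet means was 28.3 points and exact permutation p = 0.0278, the smallest possible with 3 days. IF lay below AL on days 4, 6 and 10, and above it on day 8, where AL had no 3p read.

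**Figure D3:**
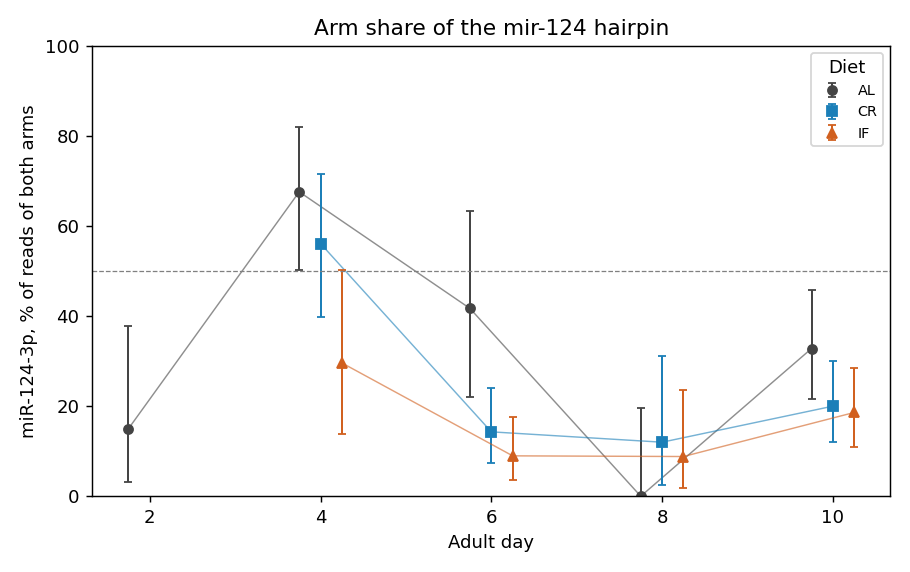
Share of miR-124-3p among the reads of both mir-124 arms (percent, vertical axis) by adult day and diet, 1 library per point with exact binomial 95% intervals; the dashed line marks equal arms. The share goes from 67.6%, 56.1% and 29.6% on day 4 to 0%, 12% and 8.82% on day 8 in AL, CR and IF and is between 18.6% and 32.8% on day 10.

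lsy-6-3p was counted in every library but with only 2 to 14 reads. AL had 0.474 CPM on day 2, and 1.39, 1.43, 2.85 and 2.36 CPM on days 4, 6, 8 and 10. CR had 1.25, 1.6, 1.97 and 1.36 CPM on the last 4 of these days, and IF 5.5, 0.958, 4.28 and 1.3 CPM. IF on days 4 and 8 was highest, with 14 and 12 reads and intervals of 3.0 to 9.22 and 2.21 to 7.47 CPM. All 12 pairs of neighbours in the order of levels had overlapping intervals, which does not show that libraries further apart are alike. The interval of IF on day 4 lay above those of CR on day 4 (0.407 to 2.93 CPM) and IF on day 6 (0.311 to 2.24 CPM). It also lay above those of AL on days 2 and 6 (upper ends 1.71 and 2.95 CPM). The same held for CR on days 6 and 10 (2.94 and 2.95) and IF on day 10 (2.68). It overlapped those of AL on day 4 (0.452 to 3.25 CPM), AL on days 8 and 10, and CR and IF on day 8. No contrast called lsy-6-3p. It only just met the filter for testing, 10 reads in at least 4 libraries, with 14 and 12 reads in IF on days 4 and 8. The other libraries that counted were CR on day 6 and AL on day 10, with 10 reads each. The SE of its diet and day contrasts was 0.55 to 0.64 log2 units.

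miR-790-5p is placed with mir-791 in a seed family as background knowledge, which no sequence used here checked, and it was added after its values were seen. It was more abundant than miR-791-3p in every library, at 61.3 CPM on average (SD 30.4, n = 13 libraries). From day 4 to day 10 it rose by 1.52 ± 0.45 log2 units (edgeR adjusted p = 0.0212), from 27.9 CPM (SD 19.3, n = 3 diets) to 73.9 CPM (SD 19.6, n = 3). In IF miR-790-5p moved from 16.5 CPM on day 4 to 84.9, 109 and 62.2 CPM on days 6, 8 and 10, while miR-791-3p of the same libraries had 9.81, 10.9, 21.0 and 9.85 CPM. Reads of miR-790-5p per read of miR-791-3p thus went from 1.68 in IF on day 4 to 7.77 on day 6, whereas in CR they went from 11.1 on day 4 to 2.51 on day 10. The ratio of this pair varied between libraries, and a difference between diets was not tested. Its IF value of day 4 rests on 42 reads of miR-790-5p and 25 of miR-791-3p. That of CR on day 4 rests on 18 reads of miR-791-3p.

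Of 7 other miRNAs with neuronal expression or roles, 6 were tested, and miR-273, reported to act in the ASE pair beside lsy-6, had 0 reads in all 13 libraries. Between days 4 and 10, 0 of these 6 rose and 2 fell, lin-4-5p (-1.28 ± 0.39) and let-7-5p (-1.37 ± 0.42), both developmental timing miRNAs that also have roles in axons, with edgeR adjusted p = 0.0217 and 0.0221. In this contrast 35.4% of all 212 were called, so 2 of 6 is near the background. The median of the 6 was -1.24, against 0.15 for all 212 and 0.49 for the 4 members. miR-234-3p, made in neurons, stood at 0.81 ± 0.46 and miR-2-3p at 0.18 ± 0.41. miR-71-5p, which acts in neurons on lifespan and in the AWC pair, stood at -1.51 ± 0.79, and miR-87-3p, known in Drosophila for dendrite regrowth, at -1.21 ± 0.49. In the diet comparisons 0 of 6 were called by edgeR, against 14.2% of all 212 for IF and 0% for CR, with medians of -0.54 for IF and -0.01 for CR against AL. On day 8 against days 6 and 10, 3 of 6 were called, where 51.4% of all were: lin-4-5p was higher (3.11 ± 0.32, edgeR adjusted p = 1.46e-06), as was miR-71-5p (1.51 ± 0.61, adjusted p = 0.0486), and miR-87-3p was lower (-2.49 ± 0.46, adjusted p = 0.000354).

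miRNAs of other tissues also moved between days and diets, and their part in the results above was not tested. The first values are for day 10 against day 4. Glial miR-228-5p rose by 1.73 ± 0.47 log2 units (edgeR adjusted p = 0.0125), with 10192 to 39438 CPM in the day 4 libraries and 61558 to 81895 on day 10. Intestinal miR-60-3p rose by 1.17 ± 0.37 (adjusted p = 0.026), from 217 to 323 CPM on day 4 to 364 to 774 on day 10. Muscle miR-1-3p was at -0.02 ± 0.58. Of the 8 miRNAs of the mir-35 family, markers of oocytes and embryos, 5 fell and 0 rose, where 39 of all 212 fell. The largest of these changes was in miR-36-3p (-5.59 ± 0.51, edgeR adjusted p = 2.55e-06), while miR-35-3p was at 0.0 ± 0.36 and miR-37-3p at 0.32 ± 0.38. Their summed level was between 168372 and 411689 CPM on day 4 and between 74250 and 108751 on day 10. None of these markers was at 0 on any day.

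On day 8, against days 6 and 10, the markers stood elsewhere. Muscle miR-1-3p was higher by 3.35 ± 0.47 (edgeR adjusted p = 3.46e-05), with 57933 to 94789 CPM on day 8 and at most 22415 on days 6 and 10. Intestinal miR-60-3p was lower (-1.73 ± 0.35, adjusted p = 0.000632), and 6 of 8 mir-35 family miRNAs were called lower and 0 higher. Glial miR-228-5p was at -0.01 ± 0.39. For IF against AL, miR-60-3p was lower (-1.05 ± 0.32, edgeR adjusted p = 0.0416), and 2 of 8 of the mir-35 family were higher, miR-37-3p (2.26 ± 0.35, adjusted p = 0.00165) and miR-39-3p (1.07 ± 0.33, adjusted p = 0.0416).

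Ratios within a library remove the scaling. The log2 ratio of miR-791-3p to glial miR-228-5p averaged -12, -12, -11.2 and -12 on days 4, 6, 8 and 10, and its range of 0.807 between days was not larger than under exchange (exact permutation p = 0.382, adjusted p = 0.403). The diets moved in opposite directions between days 4 and 10, from -12.49 to -11.05 in CR, from -11.64 to -12.24 in AL and from -11.94 to -12.6 in IF. Relative to muscle miR-1-3p, miR-791-3p was at -10.5, -9.68, -11.8 and -8.42 on days 4, 6, 8 and 10 (exact permutation p = 0.00694, adjusted p = 0.0278). Relative to intestinal miR-60-3p it was at -5.59, -3.79, -1.88 and -4.99 (exact permutation p = 0.0139, adjusted p = 0.037). On day 8 against days 6 and 10, miR-1-3p was at 3.35 ± 0.47 and miR-60-3p at -1.73 ± 0.35, both called by edgeR. miR-791-3p was at 0.74 ± 0.45 (interval -0.21 to 1.69) and was not called. How much each of them moved the day 8 ratios was not tested. Without day 8 the range went from 3.36 to 2.05 for muscle and from 3.7 to 1.79 for intestine (exact permutation p = 0.0833 and 0.111). Without day 10 it was 2.1 for muscle (exact permutation p = 0.0833). Without day 6 the intestine range was still 3.7 (exact permutation p = 0.0556, where 3 days allow no p under 0.0278). Between diets, no ratio passed (exact permutation p = 0.403, 0.116 and 0.0556 for glia, muscle and intestine).

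**Figure D4:**
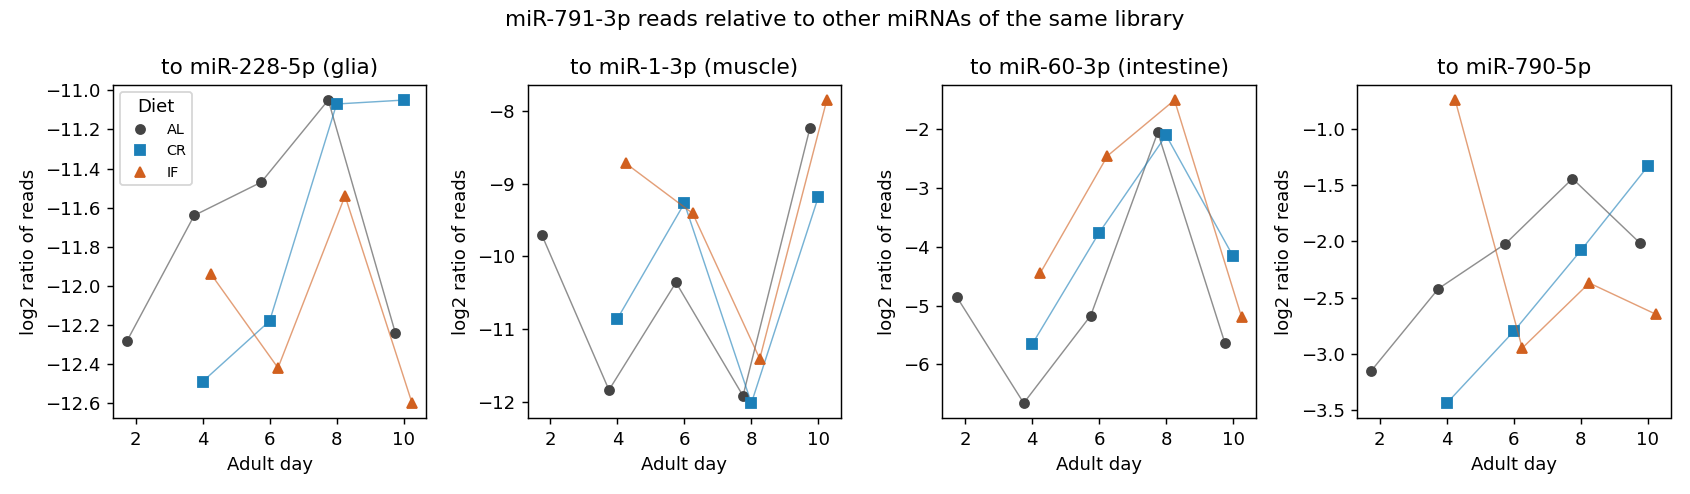
Log2 ratio of the reads of miR-791-3p to those of glial miR-228-5p, muscle miR-1-3p, intestinal miR-60-3p and miR-790-5p in the same library (vertical axes differ), by adult day and diet, 1 library per point. The ratio to miR-228-5p averages -12 on day 4 and on day 10, with CR going up and AL and IF down between them, while the ratio to miR-60-3p peaks on day 8 in each diet, at -2.05, -2.1 and -1.5 in AL, CR and IF.

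The miRNAs most like miR-791-3p across the 13 libraries each had more reads than it. By Pearson r of log2 CPM, the 5 nearest of 213 others were miR-4937 (r = 0.90), miR-238-3p (0.89), miR-64-5p (0.88), miR-65-5p (0.87) and glial miR-228-5p (0.84), with mean levels from 36.3 CPM (miR-4937) to 46781 CPM (miR-228-5p). The 13 points share diets, days and library scaling, so these values describe the libraries. Among the neuronal members, miR-124-5p was near (r = 0.80, place 8), lsy-6-3p was at 0.43 and miR-124-3p at -0.35. The 2 arms of mir-124 had r = -0.14 with each other.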

How the data were processed

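Gel-selected RNA of 18 to 30 nt went into libraries made with an Illumina small RNA kit, per the labels' protocols. The authors deposited raw counts of reads for each mature arm of each precursor, per the file headers. Their aligner, counter, miRNA release and build were not given in the sources used here. Entries sharing a mature name were collapsed to the highest count, and 434 mature miRNAs remained of 447 entries. No 2 libraries held identical counts. Depth ranged from 2639586 to 5143918 reads, and 3 reads correspond to 0.583 to 1.137 unscaled CPM.

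Counts with 10 reads in at least 4 libraries, a filter all 4 members passed, were tested with edgeR 4.0.16 (R 4.3.3; TMM scaling, quasi-likelihood test, two-sided, Benjamini-Hochberg adjustment over all miRNAs tested). Diet and day contrasts used a model of diet and day on the 12 libraries of days 4 to 10; the age slope used all 13. The title numbers stand for the day, which served as the replicate block. After removing diet means, libraries of the same day correlated at 0.555 to 0.894 (12 pairs). Those of another day and another diet correlated at -0.585 to 0.316 (36 pairs). Removing diet means itself lowers the second set where the first is positive, so part of this contrast is built in. SE is the log2 difference divided by the root of F. Exact permutation tests, one-sided for a larger range, exchanged diets within days (216 arrangements) or days within diets (576). Ratios used counts plus 0.5 and log2 CPM for correlations a prior count of 2. Alternatives included DESeq2 1.42.0 and limma 3.58.1; tests were tried on simulated data. Python 3.11.15 and scipy 1.17.1 did the rest. Positions come from Ensembl release 115.

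Members, lists and tests were chosen with earlier results of these data known. Named were the members, their opposite arms, the neuronal list, tissue markers and, for members averaging 10 CPM or more, the 5 miRNAs of highest Pearson r; seed matches could not be listed because no sequences were used here, and miR-790-5p was added later.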

Additional observations from a re-analysis of the deposited data

Results flagged for a closer look

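The level of miR-791-3p in the IF library of day 8 was 21.0 CPM, far from the other IF libraries, which lay between 9.81 and 10.9 CPM. It was the 1 of 24 combinations of a measure and a diet in which a library stood this far apart. Chance alone gives about 1 in 20 for independent replicate libraries. The libraries of a diet are of different days, and several measures hold miR-791-3p, so this rate need not apply. In AL and CR the day 8 levels were 24.3 and 21.2 CPM, so the IF library was close to the others of its day. Scaled to the unadjusted total of reads, IF had 14.3 CPM on day 8, 17.8 on day 6 and 14.6 on day 10.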

How the results depend on the processing

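Across 731 recomputed values under alternative settings, 623 kept their direction and their side of the threshold (counts: within 1.5 times). No diet call of a member appeared except that of miR-124-5p for IF with total counts (1.48, adjusted p = 0.0135). Between days 4 and 10 the calls of miR-791-3p and miR-124-5p held under DESeq2, DESeq2 size factors, total counts, no low-count filter, counts summed over precursors and without day 8, and were lost only among the fits without 1 library (1.28 to 2.48 and 1.20 to 1.64). A filter of 100 reads removed all 4 members. The cause was not tested for any change below.

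The age slope of miR-791-3p lost its call with DESeq2 size factors (0.276), total counts (0.261), no low-count filter (0.302), without day 8 (0.261), on log2 of day (1.136), with days 4 to 10 only (0.357) and, in alternatives chosen after seeing the data, with limma-voom (0.286) and with day as a random block (0.273), where libraries of a day correlated at 0.684; DESeq2 and counts summed over precursors kept it. Without 1 library it was 0.266 to 0.375. That of miR-124-3p turned to 0.009 (total counts), 0.004 (no filter), 0.045 (without day 8) and 0.063 (random block), and was -0.105 to 0.08 without 1 library; that of lsy-6-3p turned to -0.019 with days 4 to 10 only, and was -0.019 to 0.172.

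With total counts the CR to AL values of miR-124-3p and lsy-6-3p turned to 0.382 and 0.066. Day 6 against day 4 then passed for miR-791-3p (1.478) and miR-124-5p (1.471), and day 8 for miR-124-5p (-1.134) and miR-124-3p (-2.593), while miR-791-3p (-0.36) and lsy-6-3p (-0.163) turned. miR-124-3p also passed with DESeq2 (-1.857 for day 6, -1.721 for day 8), DESeq2 size factors (-1.84, -1.68) and, for day 8, no filter (-1.639). The median of all miRNAs moved by 0.42 (both diets against AL), 0.84 (day 6), -1.11 (day 8) and 0.3 (day 10) with total counts. The spread of the arm share between diets passed with pooled reads (24.326 points) and without day 8 (28.279 points).

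Counts of miRNAs called moved for IF against AL to 51 (DESeq2); for CR against AL to 21 (DESeq2), 9 (DESeq2 size factors), 15 (total counts), 22 (no filter), 8 (filter of 100 reads), 6 (without day 8) and 1 (both diets alone); for the age slope to 65 (DESeq2), 17 (total counts), 19 (log2 of day) and 4 (random block); for day 6 to 93 (total counts) and 23 (filter of 100); and for day 10 to 46 (filter of 100).

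Without 1 library, values ranged as follows. For IF against AL, lsy-6-3p -0.211 to 0.693 and 7 to 35 calls; for CR against AL, miR-124-3p -0.294 to 0.19, lsy-6-3p -0.703 to 0.003 and 0 to 13 calls; for CR against IF, miR-791-3p -0.245 to 0.647 and miR-124-5p -0.413 to 0.011. Day 6 gave miR-124-3p -1.77 to -1.385, lsy-6-3p -1.257 to 0.043 and 14 to 54 calls; day 8 miR-124-5p -0.256 to 0.113; day 10 lsy-6-3p -0.957 to 0.323 and 40 to 74 calls; and the age slope 18 to 31 calls. Without 1 day, the spread of the arm share was 12.692 to 28.279 points between diets and 16.865 to 44.157 between days, and that of the log2 ratio of miR-791-3p was 2.051 to 3.361 to miR-1-3p and 1.793 to 3.701 to miR-60-3p between days.

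Leaving out day as the replicate block gave 0 calls for IF against AL in place of 30, and 0 for both other diet comparisons. Without the block miR-124-5p differed by 0.889 between IF and AL (adjusted p = 0.834), miR-791-3p by 0.086, miR-124-3p by -0.725 and lsy-6-3p by 0.56. The other diet values kept their direction, and the spread of the arm share between diets gave exact permutation p = 0.432. miR-124-3p had 0 to 25 reads per library and lsy-6-3p 2 to 14, and the variances of their counts were 5.55 and 3.33 times those expected from counting.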
